A study of Mus musculus with 6 samples.

Results

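The genes described are 3 chemokines associated with type 2 immunity, Ccl17, Ccl22 and Ccl24, and 3 chemokine receptors, Ccr3, Ccr4 and Ccr8. They were taken by name, each from the single row of the array paired with that gene alone, and all 6 were found among 19938 genes tested. The ligands are transcript clusters 10574226 (Ccl17), 10574213 (Ccl22) and 10534493 (Ccl24), and the receptors are 10590628 (Ccr3), 10597420 (Ccr4) and 10590242 (Ccr8). The tumors were grown from Renca, a renal carcinoma cell line of BALB/c origin, in BALB/c mice, a strain with an intact immune system. In the intrakidney group, 3 mice carried a tumor seeded into the outer part of the kidney, and in the subcutaneous group another 3 mice carried a tumor seeded under the skin. Both groups received the same cell line, the labels name no further agent, and every tumor was excised 12 days after injection and frozen. Neither the age nor the sex of the mice is given in the sources used here. Whole-tumor RNA was measured on whole-transcript mouse arrays, so each value sums Renca cells, infiltrating leukocytes, stroma and any attached host tissue. A lower value can come from fewer cells of a type or from less RNA per cell, which cannot be told apart.

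Chemokines are small secreted proteins that steer leukocytes through G protein-coupled receptors. Ccl17 and Ccl22, made mainly by dendritic cells and macrophages, both bind Ccr4, a receptor of type 2 helper and regulatory T cells. Ccl24, also called eotaxin-2, is made by macrophages under interleukin 4 or 13 and binds Ccr3, the main chemokine receptor of eosinophils. Ccr8 marks a subset of type 2 and regulatory T cells, and its mouse ligands include Ccl1 and Ccl8. Interleukins 4 and 13 act on these ligand genes through the transcription factor STAT6.

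The 2 ligands of Ccr4 are encoded beside each other on mouse chromosome 8, with 1 protein-coding gene, Cx3cl1, between them in the RefSeq annotation. Their upstream sequences, and that of the receptor gene Ccr3, are shown because these genes differed in how they varied across the 6 tumors. Each is the 250 bases before a RefSeq transcript start in the build GRCm38.p6, read 5′ to 3′ on the plus strand. Capitals mark matches, on either strand, to TTCNNNNGAA, the spacing that STAT6 prefers, and to a motif of GATA transcription factors, spelled AGATAA, and no match to the first overlaps a match to the second. The Ccl17 sequence lies at chr8:94810203-94810452, that of Ccl22 at chr8:94745434-94745683 and that of Ccr3 at chr9:124021721-124021970.
Ccl17: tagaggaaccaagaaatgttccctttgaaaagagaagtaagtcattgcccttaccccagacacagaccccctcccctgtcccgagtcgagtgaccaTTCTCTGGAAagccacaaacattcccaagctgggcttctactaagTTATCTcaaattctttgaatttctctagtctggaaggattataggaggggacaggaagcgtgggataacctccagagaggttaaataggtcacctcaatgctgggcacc
Ccl22: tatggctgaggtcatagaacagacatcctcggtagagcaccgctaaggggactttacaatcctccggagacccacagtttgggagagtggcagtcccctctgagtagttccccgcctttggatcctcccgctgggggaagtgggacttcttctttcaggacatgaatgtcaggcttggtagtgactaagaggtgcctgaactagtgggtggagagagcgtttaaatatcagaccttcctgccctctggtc
Ccr3: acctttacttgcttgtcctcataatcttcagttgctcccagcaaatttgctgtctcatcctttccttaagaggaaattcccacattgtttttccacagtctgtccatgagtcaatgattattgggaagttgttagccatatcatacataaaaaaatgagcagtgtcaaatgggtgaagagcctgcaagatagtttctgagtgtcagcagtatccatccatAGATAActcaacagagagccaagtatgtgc

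RefSeq upstream sequences were matched for 5 of the 6 genes, all but Ccl24. The STAT6 spacing was found in Ccl17 alone among these 5, as TTCTCTGGAA starting 154 bases before the transcript start. It occurs in 5.85% of all 32851 upstream sequences of that length. The GATA motif was found in Ccl17, Ccr3 and Ccr8, starting 109, 30 and 239 bases before the start, and occurs in 9.99% of all sequences. These matches describe the letters only, and no binding was measured.

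The groups were compared to see whether these genes differed with the place where the same cells had grown. Ccl24 was the only member of the 6 that passed limma's test at an adjusted p of 0.05, with 1.44-fold more signal in intrakidney tumors. Of all genes tested, 0.231% passed in either direction. Ccr3, the receptor for Ccl24, also had intrakidney arrays wholly above the subcutaneous arrays but did not pass. Ccl22 differed in the other direction without passing, and Ccl17, Ccr4 and Ccr8 had overlapping groups with small differences. In all, the groups of 2 members, Ccl24 and Ccr3, did not overlap, a state shown by 14.9% of all genes. At an unadjusted p of 0.05, 3 members passed, Ccl24, Ccr3 and Ccl22, against 8.43% of all genes. Since the members were chosen with earlier results of these arrays known, these counts are a description.

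**Figure D1:**
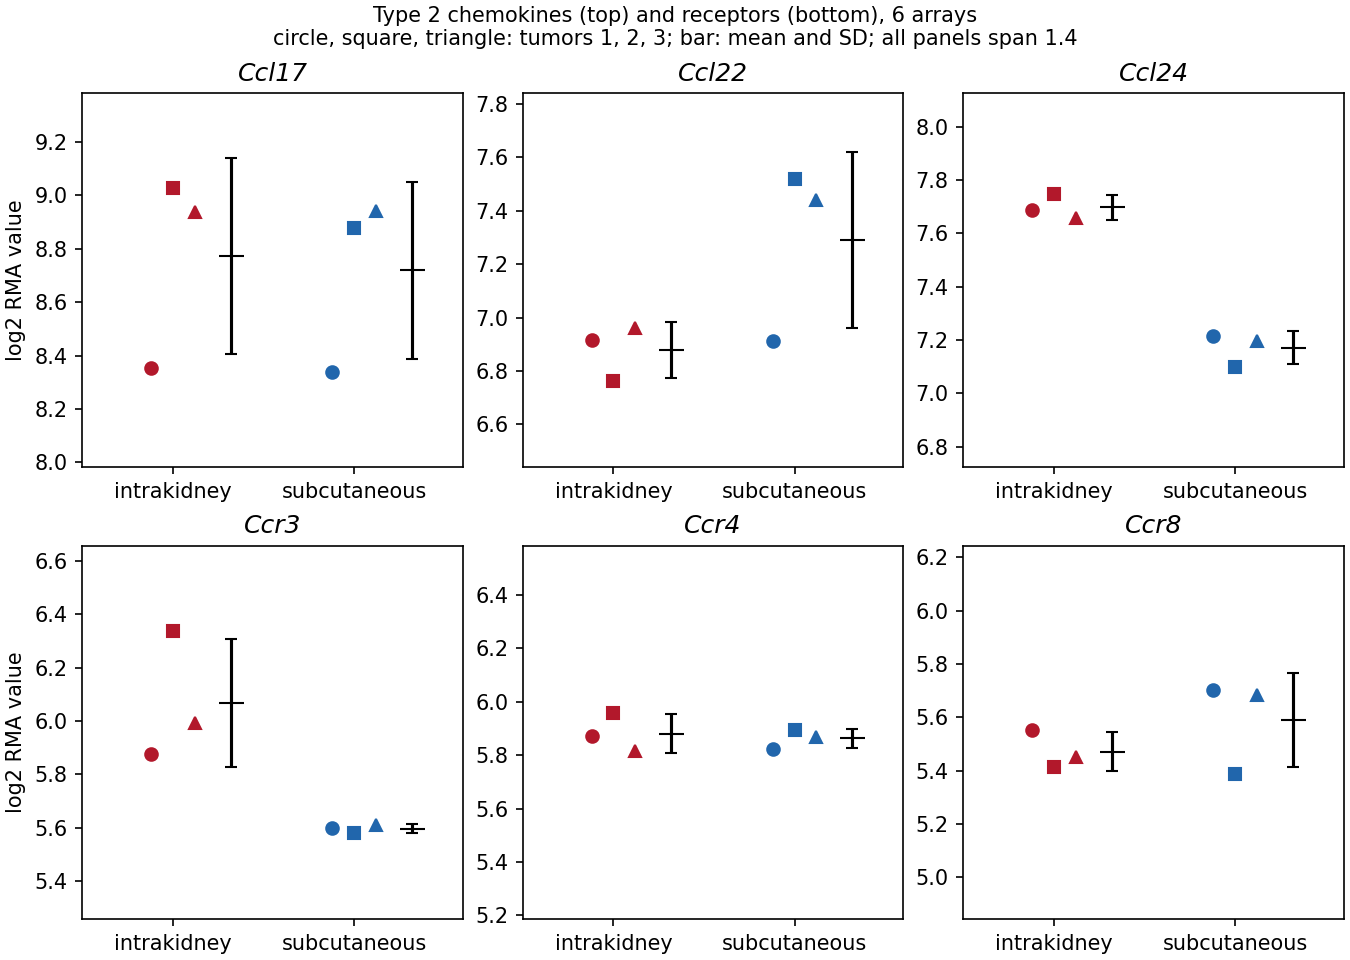
Log2 RMA value (vertical axis) of the 3 chemokine genes (top row) and 3 receptor genes (bottom row) on each of the 6 arrays, with intrakidney tumors in red and subcutaneous tumors in blue, symbols for tumors 1, 2 and 3, and black bars for the mean and SD of 3 tumors. Every panel spans the same log2 distance, and the groups are apart for Ccl24 and Ccr3 and overlap for the other 4 genes.

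Ccl24, the eotaxin of macrophages, had log2 values of 7.69, 7.75 and 7.66 in intrakidney tumors 1, 2 and 3 and of 7.22, 7.10 and 7.20 in subcutaneous tumors 1, 2 and 3. The lowest intrakidney tumor lay above the highest subcutaneous tumor, and the tumors within each group lay close together. The means were 7.70 ± 0.05 and 7.17 ± 0.06 (SD, n = 3 per group). Ccl24 rose by 0.53 ± 0.07 on the log2 scale in intrakidney tumors (SE, limma, adjusted p = 0.0460), with a 95% interval of 0.36 to 0.69. The size was kept when each array was left out in turn, at 0.49 to 0.55, but the call was lost whichever of the 6 arrays was left out (adjusted p = 0.0955 to 0.291).

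Beside Ccl24, 12 macrophage markers were measured. Of these, 9 were higher in intrakidney tumors, with a median log2 fold change of 0.35 against -0.01 over all genes. The groups of 7 did not overlap, a state shown by 14.9% of all genes. The mean over the list was 8.98 to 9.12 in intrakidney and 8.62 to 8.69 in subcutaneous tumors. Past the threshold were 2 members, the complement receptor gene Vsig4 (1.37 ± 0.16) and the folate receptor gene Folr2 (0.58 ± 0.08), both of resident macrophages, and 0 were lower. Cd14, which binds bacterial lipopolysaccharide, missed the threshold (0.44, adjusted p = 0.0744). With 1 array left out at a time, the call of Vsig4 was kept in 1 of 6 fits, the one without intrakidney tumor 3, and that of Folr2 was lost whichever array was left out. The general macrophage genes Csf1r, Adgre1, Cd68, Fcgr1 and Mertk, chosen after their values were seen, differed by -0.14, -0.05, -0.06, 0.08 and 0.12, each with overlapping groups. The remaining listed genes Cd163, Lyve1, Mrc1 and Timd4 were higher by 1.04, 0.54, 0.39 and 0.31, with groups that did not overlap. None of these passed the threshold. The part of macrophage number or state in the Ccl24 value was not tested.

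Ccr3, the eosinophil receptor for Ccl24, measured 5.88, 6.34 and 5.99 in intrakidney tumors 1, 2 and 3 and 5.60, 5.58 and 5.61 in the subcutaneous tumors. The subcutaneous tumors were nearly equal, all intrakidney tumors lay above them, and intrakidney tumor 2 was the highest. The group means were 6.07 ± 0.24 and 5.60 ± 0.02 (SD, n = 3 per group). The difference of 0.47 ± 0.12 did not pass over all genes (SE, limma, adjusted p = 0.282; 95% interval 0.19 to 0.75). It passed with array weights (0.46, adjusted p = 0.0354), a setting that rested the subcutaneous group mostly on tumor 2 and the intrakidney group mostly on tumor 3. That setting called 624 of all 19938 genes. Intrakidney tumors 2 and 3 had the highest list means of proximal tubule genes (6.92 and 7.50). Of these 2 tumors, tumor 3 had the higher list mean and tumor 2 the higher Ccr3 value. Without these 2 tumors the Ccr3 difference was 0.28, a value that rests on 1 intrakidney array. Both also had the highest Ccr3 values, so a smaller difference was bound to follow, and no conclusion is drawn from it. The part of kidney tissue in the Ccr3 value was not tested. The mean value of Ccr3 lay under the 40th percentile of all genes, where array values are compressed.

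Beside Ccr3, 7 of 9 other eosinophil markers were measured. In intrakidney tumors 5 of them were higher and 2 lower, and the median log2 fold change was 0.07. Alox15, a lipoxygenase gene of eosinophils and of resident peritoneal macrophages, alone passed the threshold, at 1.70 ± 0.15 (SE, limma, adjusted p = 0.0113). That call was lost when any subcutaneous tumor was left out (adjusted p up to 0.0827). The eosinophil lectin gene Siglecf differed by -0.11 and the granulocyte factor gene Cebpe by 0.18. The granule protein genes Prg2 and Epx and the interleukin 5 receptor gene Il5ra, chosen after their values were seen, differed by 0.11, 0.07 and 0.04. Ear6, the remaining measured gene of the list, differed by -0.08. The list mean was 6.22 to 6.41 in intrakidney and 5.97 to 6.12 in subcutaneous tumors, Alox15 included. Alox15 was the only gene of the list whose groups did not overlap, so no difference of the whole list is read from these means. The part of eosinophil number in the Ccr3 value was not tested.

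Other ligands of Ccr3 were mixed. Ccl7, a monocyte-attracting chemokine that also binds Ccr3, measured 10.55, 10.35 and 10.22 in intrakidney tumors 1, 2 and 3 and 9.43, 9.58 and 9.86 in the subcutaneous tumors. These groups did not overlap, and the difference of 0.75 ± 0.13 missed the threshold (SE, limma, adjusted p = 0.110). Ccl11, the classical eotaxin of fibroblasts and epithelium, measured 7.13, 7.31 and 7.62 in intrakidney tumors 1, 2 and 3 and 7.12, 7.11 and 7.12 in the subcutaneous tumors. Its lowest intrakidney tumor lay only just above the subcutaneous tumors, and the difference was 0.24 (adjusted p = 0.684; 95% interval -0.05 to 0.52). Ccl5, which attracts T cells and also binds Ccr3, differed by -0.24 and Ccl26 by -0.13, each with overlapping groups. With the 2 ligands of Ccr8, 0 of these 6 ligands passed with limma at the adjusted threshold. Ccl7 alone passed at an unadjusted p of 0.05, as 8.43% of all genes did. Ccl7 passed with array weights (624 of all 19938 genes did) and with an intensity trend and robust prior (138 of all genes did).

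**Figure D2:**
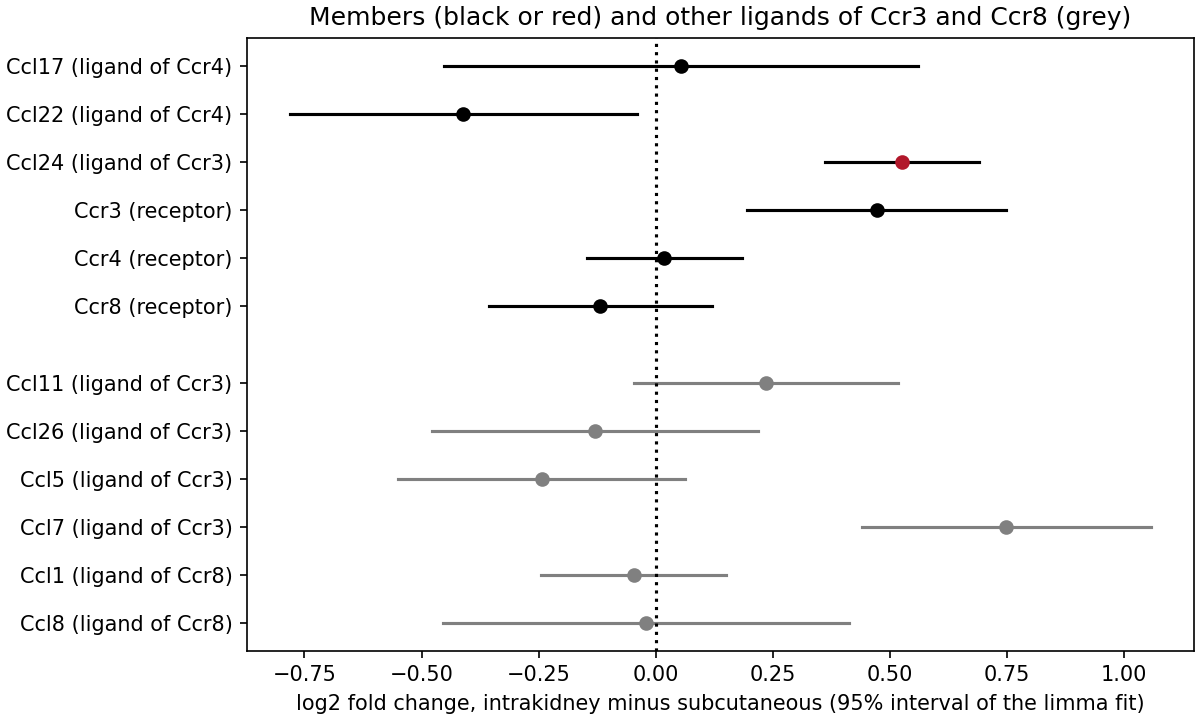
Log2 fold change (horizontal axis, intrakidney minus subcutaneous) with the 95% interval of the limma fit for the 6 members and, in grey, for 6 other ligands of Ccr3 and Ccr8. The red point, Ccl24, is the only gene plotted that passed an adjusted p of 0.05, and the intervals of Ccl17, Ccr4 and Ccr8 include 0.

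Ccl22, a ligand of Ccr4, measured 6.92, 6.76 and 6.96 in intrakidney tumors 1, 2 and 3 and 6.91, 7.52 and 7.44 in subcutaneous tumors 1, 2 and 3. Subcutaneous tumors 2 and 3 stood above the other 4 tumors, while subcutaneous tumor 1 lay within the intrakidney range. The means were 6.88 ± 0.10 and 7.29 ± 0.33 (SD, n = 3 per group). The difference of -0.41 ± 0.16 did not pass over all genes (SE, limma, adjusted p = 0.543; unadjusted p = 0.0338; 95% interval -0.78 to -0.04). Leaving out subcutaneous tumor 1 gave -0.60 (adjusted p = 0.218), and leaving out subcutaneous tumor 2 gave -0.30 (adjusted p = 0.999).

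Ccl17, the other ligand of Ccr4, measured 8.35, 9.03 and 8.94 in intrakidney tumors 1, 2 and 3 and 8.34, 8.88 and 8.94 in the subcutaneous tumors. In each group the tumor numbered 1 was the low value and the other tumors lay close together, so the spread within groups exceeded the gap between them. The difference was 0.05 ± 0.22 (SE, limma, adjusted p = 0.979), with a 95% interval of -0.45 to 0.56 that leaves room for a change of the size seen for Ccl24 in the upward direction. Its sign turned when intrakidney tumor 2 (-0.07), intrakidney tumor 3 (-0.03) or subcutaneous tumor 1 (-0.14) was left out, and when both of these intrakidney tumors were (-0.37). No direction is therefore given for Ccl17.

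Dendritic cells are a main source of both Ccr4 ligands. Of their 10 measured markers 6 were higher and 4 lower, and the median difference was 0.03 on the log2 scale. Cd207, the langerin gene of Langerhans cells and related dendritic cells, fell by 0.63 ± 0.07 in intrakidney tumors (SE, limma, adjusted p = 0.0299), and no other gene of the list passed. That call was lost whichever of the 6 arrays was left out (adjusted p = 0.0713 to 0.179). Ccr7, the receptor that migrating dendritic cells use to reach lymph nodes, measured 7.62, 7.62 and 7.68 in intrakidney and 8.07, 8.11 and 8.07 in subcutaneous tumors (adjusted p = 0.0587). Clec9a, a gene of cross-presenting dendritic cells, differed by 0.29 with overlapping groups. The list mean was 7.35 to 7.48 in intrakidney and 7.45 to 7.51 in subcutaneous tumors, and its part in the Ccl22 value was not tested.

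Ccr4, the receptor for Ccl17 and Ccl22, measured 5.87, 5.96 and 5.81 in intrakidney tumors 1, 2 and 3 and 5.82, 5.89 and 5.87 in the subcutaneous tumors. All 6 values lay within 0.14 of each other on the log2 scale, the narrowest span of the 6 members. The difference was 0.02 ± 0.07 (SE, limma, adjusted p = 0.978), with a 95% interval of -0.15 to 0.18. Its sign turned with array weights and without intrakidney tumor 2 or subcutaneous tumor 1, so no direction is given.

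Ccr8, the receptor for Ccl1 and Ccl8, measured 5.55, 5.41 and 5.45 in intrakidney tumors 1, 2 and 3 and 5.70, 5.39 and 5.68 in the subcutaneous tumors. Subcutaneous tumors 1 and 3 were the highest and subcutaneous tumor 2 the lowest of all 6. The difference of -0.12 ± 0.10 did not pass (SE, limma, adjusted p = 0.843; 95% interval -0.36 to 0.12). Its ligands Ccl1 and Ccl8 differed by -0.05 and -0.02 with overlapping groups. Ccr3, Ccr4 and Ccr8 all lay under the 40th percentile of mean value and Ccl17, Ccl22 and Ccl24 above it, so a filter at that level kept 3 of the 6 members.

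Markers of the cells that carry Ccr4 and Ccr8 were lower in intrakidney tumors in count but not past the threshold. All 10 measured T cell genes were lower, and their median difference was -0.31. Of these 0 passed with limma, 4 passed at an unadjusted p of 0.05 (8.43% of all genes did) and 3 passed with array weights (624 of all 19938 genes did). The lowest p-values belonged to the T cell receptor chain genes Cd3d (-0.49, adjusted p = 0.0797) and Cd3e (-0.41) and the co-stimulator gene Icos (-0.34). The T cell list mean was 6.41 to 6.61 in intrakidney and 6.74 to 6.87 in subcutaneous tumors. All 6 regulatory T cell genes were also lower, with a median of -0.18. Among them 0 passed with limma, 2 at an unadjusted p of 0.05 and 1 with array weights, beside the same shares of all genes. Ctla4, Foxp3 and Il2ra differed by -0.34, -0.18 and -0.19. The regulatory T cell list mean was 6.48 to 6.56 in intrakidney and 6.68 to 6.71 in subcutaneous tumors. The part of these cells in the values of Ccr4 and Ccr8 was not tested.

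**Figure D3:**
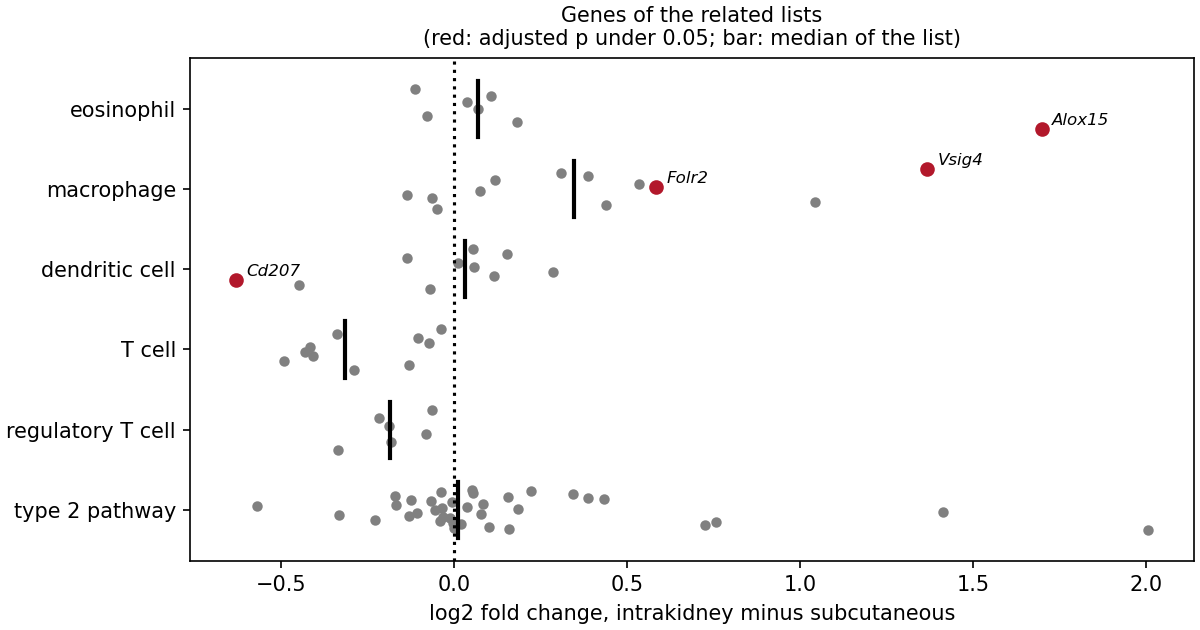
Log2 fold change (horizontal axis, intrakidney minus subcutaneous) of each measured gene in 6 lists of related genes, with a black bar at the median of each list and red points for genes past an adjusted p of 0.05. The macrophage median is 0.35, the T cell and regulatory T cell medians are -0.31 and -0.18, and the medians of the eosinophil, dendritic cell and type 2 pathway lists lie between 0.01 and 0.07.

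Genes of the type 2 cytokine pathway were split in direction, with 19 higher and 17 lower of 36 measured out of 39 listed, and a median log2 fold change of 0.01. With limma 0 passed at the adjusted threshold, while 12 passed at an unadjusted p of 0.05, 9 of them higher, against 8.43% of all genes. The groups of 12 did not overlap, 10 of them higher, a state shown by 14.9% of all genes. An intensity trend with a robust prior called 3 (138 of all 19938 genes) and array weights called 6 (624 of all 19938 genes). The lowest p-values were those of Csf2, a myeloid growth factor gene (0.76 ± 0.11, adjusted p = 0.0724), the arginase gene Arg1 (2.01 ± 0.33, adjusted p = 0.0947) and the alarmin gene Il33 (1.41 ± 0.25, adjusted p = 0.110). Some genes of interleukin 4 and 13 signalling are given beside these, chosen after their values were seen. Il4, which like Il33 and Retnla lay under the 40th percentile of mean value, differed by -0.06 and Il13 by -0.01, each with overlapping groups. Their receptor gene Il4ra differed by 0.19 with groups that did not overlap (limma, adjusted p = 0.510; unadjusted p = 0.0294), and Stat6 differed by -0.04 (adjusted p = 0.942). Besides Arg1, the listed target genes Clec10a, Mgl2, Mrc1, Retnla and Tgm2 differed by 0.73, 0.43, 0.39, 0.34 and 0.22, with groups that did not overlap. The other listed targets Chil3, Clec7a, Chil4 and Fcer2a differed by 0.16, 0.02, 0.0015 and -0.04, with overlapping groups. In the other direction, 3 genes were lower at an unadjusted p of 0.05 with limma. These were Il7r (-0.57, overlapping groups), Il17rb (-0.33) and Il9 (-0.17), the groups of Il17rb and Il9 not overlapping.

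To ask whether members changed unequally, the difference between their log2 values was taken within each array. This removes a shift common to all genes of an array, but not effects that depend on a gene's level. For Ccl22 minus Ccl24 the difference was -0.77, -0.99 and -0.70 in intrakidney tumors 1, 2 and 3 and -0.31, 0.42 and 0.24 in the subcutaneous tumors. The groups did not overlap, and the changes of these ligands were 0.94 apart. The changes of Ccr3 and Ccr4 were 0.45 apart and those of Ccr3 and Ccr8 were 0.59 apart, again without overlap. Each of these 3 pairs had a two-sided exact permutation p of 0.1, the smallest that 3 against 3 allows, and 0.2 after adjustment over the 6 pairs compared. Each pair holds Ccl24 or Ccr3, whose own groups did not overlap, so the pairs are not separate from those results. The pairs Ccl17 with Ccl22, Ccl17 with Ccl24 and Ccr4 with Ccr8 had overlapping groups (exact permutation p = 0.2, 0.3 and 0.4).

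The genes whose pattern over the 6 arrays was most like each member were taken by Pearson correlation, among about 1025 brighter genes that varied by at least 0.5. With 6 arrays such a correlation is a description only. For Ccl24 they were the aggrecanase gene Adamts5, the NF-kappa-B inhibitor gene Nfkbie and Alox15 (r = 0.984, 0.983 and 0.981), which like Ccl24 had groups that did not overlap. In all, 63 genes had r above 0.9 with Ccl24. For Ccr3 they were the methyltransferase gene Inmt, the apelin gene Apln and the spermidine synthase gene Srm (r = 0.985, 0.923 and 0.921), and 6 genes had r above 0.9. Inmt was highest in intrakidney tumor 2 (10.18, against 9.58 and 9.75 in tumors 1 and 3), as Ccr3 was.

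The patterns of the Ccr4 ligands led to other genes. For Ccl17 they were Fam43b, the interleukin 20 receptor gene Il20rb and the transcription factor gene Klf14 (r = 0.978, 0.965 and 0.964), which shared its low values in intrakidney tumor 1 and subcutaneous tumor 1. For Ccl22 they were Sprr1a, a cornified envelope gene, the autophagy kinase gene Ulk1 and the histone gene H2bc4 (r = 0.914, 0.870 and 0.869). Only 1 gene had r above 0.9 with Ccl22, against 24 with Ccl17. Ccr4 and Ccr8 varied by less than 0.5 and were not compared in this way.

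Across the other settings tried, 4 of the 6 members kept their sign. The filter on dim genes, the test of every row and the mean of rows cannot change a member's fold change. Neither can the intensity trend, the block for the replicate number or an adjusted p of 0.01. The kept signs therefore rest on the remaining settings. Ccl24 stayed between 0.48 and 0.55 under all 17, and Ccr3 stayed above 0 under all 16 that kept it, at 0.28 to 0.57. Ccl22 and Ccr8 stayed below 0 in every setting that kept them, at -0.60 to -0.30 and -0.22 to -0.02. Ccl17 and Ccr4 took both signs.

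**Figure D4:**
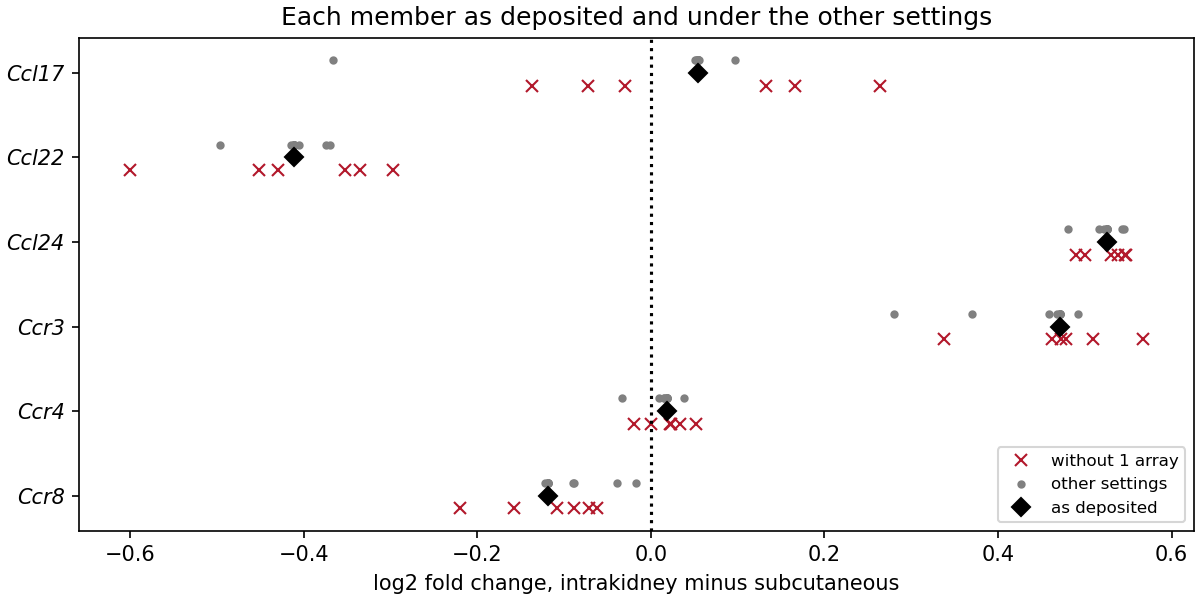
Log2 fold change (horizontal axis, intrakidney minus subcutaneous) of each member as deposited (black diamonds), with 1 array left out (red crosses) and under the other settings (grey dots). Ccl24 and Ccr3 lie above 0 and Ccl22 and Ccr8 below 0 throughout, whereas Ccl17 and Ccr4 cross 0. Some of the other settings cannot change a fold change, so their grey dots lie at the deposited value.

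As to the arrays themselves, all 15 pairs had a Pearson correlation of 0.990 to 0.997 across genes, and genes are no independent replicates. Proximal tubule genes had list means of 6.69, 6.92 and 7.50 in intrakidney tumors 1, 2 and 3 and of 6.54 to 6.71 in subcutaneous tumors. Attached or invaded kidney and Renca cells, themselves a renal line, cannot be told apart as their source. Of these genes 0 of 9 passed the threshold in limma, 3 passed at an unadjusted p of 0.05 (8.43% of all genes did) and 3 with array weights (624 of all 19938 genes did). Their median difference was 0.26, and Aqp1, Cyp2e1 and Pck1 differed by -1.04, 2.55 and 0.64. Keratinocyte genes, markers of overlying skin, had list means of 5.83 to 6.07 in intrakidney and 5.83 to 6.09 in subcutaneous tumors, and 0 of 6 passed, also at an unadjusted p of 0.05 and with array weights. With 3 arrays per group, their number sets the precision of all values.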

How the data were processed

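Total RNA of 6 snap-frozen tumors, 3 intrakidney and 3 subcutaneous, was hybridised to Affymetrix Mouse Gene 1.0 ST arrays, per the labels. The deposited values are log2 expression values that the authors made with RMA and affy, per the submitters' processing notes. Their versions, settings and genome build are not given in the sources used here. The log2 scale follows from the range of the values (2.31 to 15.07). Whether the arrays were normalized together is unknown. RMA compresses differences of dim genes.

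Of 35512 rows, 21789 were paired with exactly 1 gene by the platform annotation, 1621 were paired with several, and 12102 are not named here. Per gene the row with the highest mean was kept, which left 19938 genes, each member having 1 row. No filter on dim genes was set. The comparison used limma 3.58.1 under R 4.3.3 (lmFit and eBayes, two-sided, Benjamini-Hochberg over all genes, threshold 0.05), as intrakidney minus subcutaneous, and every p-value and SE is from that fit unless an exact test is named. The spread is that between separate mice, and the labels name no batch. In 10 simulations over 19938 genes for this comparison, 200 genes were changed, with normal noise of the same SD in both groups. Among changed genes whose estimated sign was right, the fit called 42.1% of those changed by 0.5, 84.6% by 1 and 98.5% by 2. False calls were 3.85% of the calls.

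The members, the lists of related genes and cell markers, the tests and the 17 other settings were chosen with earlier results of these data known. All members are named. Of each list the 3 genes with the lowest p are named, and of the ligand list every gene. Likeness was the highest Pearson r over 6 arrays among genes with a mean at or above the median and a span of at least 0.5, without provisional names. The other settings were array weights, an intensity trend with a robust prior, a linear-scale offset of 16, a filter at the 40th percentile of mean value, the test of every row, the mean of a gene's rows, an adjusted p of 0.01, quantile normalization, median centring, a block for the replicate number, and leaving out each array or intrakidney tumors 2 and 3. Upstream sequences came from RefSeq (GRCm38.p6), matched by symbol.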

Additional observations from a re-analysis of the deposited data

How the results depend on the processing

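The Ccl24 call was kept with quantile normalization, median centring, the filter on dim genes, the offset, the mean of rows, the intensity trend and array weights, with an adjusted p between 0.00621 and 0.291 over all 17 settings. The members past the threshold numbered 0 with every row tested, at an adjusted p of 0.01, without intrakidney tumors 2 and 3, and from 0 to 0 with each array left out, and 2 with array weights, where Ccr3 was added. The genes past the threshold numbered 46 as deposited, 101 with the filter on dim genes, 74 with the offset, 138 with the trend, 624 with array weights, 5 at an adjusted p of 0.01, 30 without intrakidney tumors 2 and 3, and 2 to 33 with each array left out. With every row tested limma called 0 genes, with 2206 rows at an unadjusted p of 0.05. The replicate number as a block gave 0 genes and 0 members (1825 genes at an unadjusted p of 0.05). Same-numbered tumors came from separate mice, and the correlations of their deviations were 0.37, -0.16 and 0.10. The tumors numbered 1 correlated best with each other, but not every tumor correlated best with its own number. Whether same-numbered tumors shared a processing step was not tested. The sign of Ccl17 turned without intrakidney tumor 2 (-0.07), intrakidney tumor 3 (-0.03), subcutaneous tumor 1 (-0.14) or intrakidney tumors 2 and 3 (-0.37), and that of Ccr4 with array weights or without intrakidney tumor 2 (-0.019) or subcutaneous tumor 1 (-0.00044). With each array left out, Ccl17 ranged from -0.14 to 0.26 and Ccr4 from -0.019 to 0.052, and Ccr4 was -0.033 with array weights. The cause was not tested. Leaving out intrakidney tumors 2 and 3 leaves 1 intrakidney array, assumed to vary like the subcutaneous arrays. The filter on dim genes removed Ccr3, Ccr4 and Ccr8. Over all genes the median difference was -0.0058 in the deposited values, 0.0045 with quantile normalization and -0.0094 with median centring.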

Other observations

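Further marker lists were measured in the same tumors. Of 9 genes of basophils and mast cells, which respond to the same type 2 cytokines, 2 were higher and 7 lower in intrakidney tumors. Among them 0 passed with limma, 1 passed at an unadjusted p of 0.05 (8.43% of all genes did) and 1 with array weights (624 of all 19938 genes did). Hdc, which makes histamine, differed by 0.50 (adjusted p = 0.509), the chymase gene Cma1 by -0.22 and the receptor gene Kit by -0.11. The median of the list was -0.11. Adipocyte genes were higher in 5 of 5 with a median of 0.57, the hormone genes Adipoq and Retn differed by 1.14 and 0.57, and Cidec, a lipid droplet gene, rose by 0.66 ± 0.08 (SE, limma, adjusted p = 0.0280), a call that was lost whichever of the 6 arrays was left out. Fibroblast genes were lower in 6 of 7 with a median of -0.83, and the matrix glycoprotein gene Postn fell by 1.66 ± 0.22 (adjusted p = 0.0460), a call kept in 1 of the 6 fits with 1 array left out, that without intrakidney tumor 3, while the matrix genes Lum and Col1a1 differed by -1.07 and -0.94. Among keratinocyte genes, whose median was -0.0016, Krt14, Krtdap and Krt5 differed by 0.11, 0.08 and -0.03.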
